A study of Mus musculus with 2 samples.

Results

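Mir320, Mir484, Mir877, Mir1224 and Mir1981 are miRNA genes of the mouse whose precursor hairpins are made without the nuclease Drosha. They were taken by gene name from a list of such genes, and all 5 were found among the 2202 miRNA genes counted. Small RNA below 30 nucleotides from the adrenal gland of adult male mice, aged 8 to 10 months and labelled 5xFAD/CAST, was sequenced in 2 libraries that the labels call biological replicates 1 and 2 of 1 group. The strain name pairs a transgenic model of Alzheimer's disease with a wild-derived inbred strain, and the labels do not say whether these animals carried the transgene. Both replicates refer to 1 donor record, so the spread between them may be partly technical. There was no second group, and the question the data answer is how abundant these genes were in the gland and how closely the libraries matched.

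Most animal miRNAs begin as a long transcript from which Drosha, with its partner DGCR8, cuts a hairpin, and Dicer then cuts the hairpin to the mature miRNA. A mirtron skips the first cut. It is a short intron that is spliced out of a host transcript, opened by the debranching enzyme and folded into a hairpin that Dicer can use, so its ends are splice sites. Mir877, Mir1224 and Mir1981 are listed as mirtrons. The hairpins of Mir320 and Mir484 are made as short capped transcripts of RNA polymerase II whose 5-prime end is the transcription start. They keep the cap and go straight to Dicer.

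The introns that carry the 3 mirtrons are shown in full, because in each the hairpin and the intron are the same stretch of RNA. The sequences are those of RefSeq on GRCm38.p6, written 5-prime to 3-prime, with capitals for the first and last pair of bases, the splice donor GU and the splice acceptor AG.
Mir877: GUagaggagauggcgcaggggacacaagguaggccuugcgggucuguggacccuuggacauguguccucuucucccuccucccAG
Mir1224: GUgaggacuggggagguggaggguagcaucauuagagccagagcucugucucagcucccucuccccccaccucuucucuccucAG
Mir1981: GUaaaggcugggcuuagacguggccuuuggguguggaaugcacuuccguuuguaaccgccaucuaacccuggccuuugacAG

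The mature sequences that RefSeq gives for these genes are shown with the seed, bases 2 to 8, in capitals, since the seed selects the messages a miRNA binds. RefSeq sequences were matched for 4 of the 5 genes. None was matched for Mir320.
miR-484: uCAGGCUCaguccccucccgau
miR-877-5p: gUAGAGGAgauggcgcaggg
miR-877-3p: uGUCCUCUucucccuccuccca
miR-1224-5p: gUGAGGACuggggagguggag
miR-1224-3p: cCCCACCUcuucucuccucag
miR-1981-5p: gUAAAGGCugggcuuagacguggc
miR-1981-3p: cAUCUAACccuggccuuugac
The 7 mature sequences carry 7 different seeds, and 0 of these seeds occurred in a mature sequence of another gene in the RefSeq table. The counts belong to whole hairpins, so they do not say which arm was sequenced.

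The 3 mirtrons matched their introns base for base. Mir877 (ENSMUSG00000077931.1; GRCm38 chr17:35960730-35960814, minus strand) is intron 12 of the 22 introns of Abcf1, which encodes a translation factor of the ABC family. Mir1224 (ENSMUSG00000080669.1; chr16:20604452-20604536, plus strand) is intron 22 of 22 of Vwa5b2. Mir1981 (ENSMUSG00000088559.1; chr1:184822407-184822488, minus strand) is intron 5 of 7 of Marc2, which encodes a mitochondrial reductase. Intron numbers are those of the annotated transcript with the most introns, and all these introns lie between coding exons. Their lengths are 85, 85 and 82 bases, and the distance from hairpin end to intron end is 0 bases on both sides of each.

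Neither capped gene lies inside an annotated gene of its own strand. Mir320 (ENSMUSG00000065528.1; chr14:70443510-70443591, plus strand) lies 63 bases from the annotated start of Polr3d, a subunit gene of RNA polymerase III that is read in the other direction. Mir484 (ENSMUSG00000070074.1; chr16:14159626-14159692, plus strand) overlaps an untranslated exon of Marf1, which is on the minus strand. It lies 3649 bases before the annotated start of Nde1 on its own strand. The sense counts used here leave out reads of the opposite strand.

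Replicate 1 held 13209343 reads and replicate 2 held 6482170, of which 6783227 and 3084602 were sense reads of miRNA genes. Levels are given as CPM, reads of a gene per 1000000 of these sense miRNA reads. The reads come from small RNA below 30 nucleotides, and no scaling by gene length was applied. The limit behind a count of 0, 3 reads, corresponds to 0.442 CPM in the first library and 0.973 CPM in the other. Mir375 and Mir7b, markers of neuroendocrine cells such as those of the medulla, held 6.33% and 8.69% of these reads together. Mir375 was the higher in replicate 2, at 58717 and 82443 CPM, while Mir7b was at 4535 and 4423 CPM. Endothelial Mir126a held 9.26% and 5.25%, and the smooth muscle markers 2.95% and 2.56%. The red cell markers held 0.554% and 0.214%, with Mir451a at 5351 and 1949 CPM but Mir144 at 191 and 187 CPM. The liver marker Mir122 held 0.0257% and 0.00577%, leukocyte markers 0.0610% and 0.0693%, and kidney markers 0.00453% and 0.00396%. Striated muscle markers had only 25 and 11 reads, and acinar pancreas markers 6 and 1. The part of these markers in the differences between the libraries was not tested. No marker of the steroid-producing cortex was on the list.

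All 5 genes were detected, defined as above 2 CPM in both libraries, beside 334 of all 2202 genes (15.2%). The 5 were chosen with earlier results of these data known, so this count is a description and no test. Together they held 0.422% (Wilson 95% interval 0.417 to 0.426) of the miRNA reads of replicate 1 and 0.423% (0.416 to 0.431) of those of replicate 2. The capped pair supplied most of this, 0.386% and 0.391%, and the 3 mirtrons 0.0357% and 0.0320%. Intervals here and below are computed from the reads of each library and cover the error of counting reads only. The reads carry no molecular identifiers, so copies of the same molecule could not be told apart.

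Mir320 was the most abundant of the 5. It stood at 3361 CPM (exact Poisson 95% interval 3318 to 3405) from 22799 reads in replicate 1 and at 3313 CPM (3249 to 3378) from 10219 reads in replicate 2. The 2 intervals overlapped. The mean was 3337 ± 34.1 CPM (SD, n = 2), rank 40 of the 2202 genes.

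Mir484, the other capped gene, stood at 497 CPM (480 to 514) from 3371 reads in replicate 1 and at 601 CPM (574 to 629) from 1854 reads in replicate 2. Here the intervals did not overlap, and replicate 2 was the higher. The mean was 549 ± 73.6 CPM (SD, n = 2), rank 95. Mir320 was 6.76-fold above Mir484 in replicate 1 and 5.51-fold above it in replicate 2.

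Mir1981 was the most abundant of the 3 mirtrons, at 301 CPM (288 to 314) from 2040 reads in replicate 1 and 258 CPM (241 to 277) from 797 reads in replicate 2. Replicate 1 was the higher, with intervals that did not overlap. The mean was 279.6 ± 30.0 CPM (SD, n = 2), rank 114. Mir877 stood at 51.6 CPM (46.3 to 57.3) from 350 reads and 54.5 CPM (46.5 to 63.4) from 168 reads, a mean of 53.0 ± 2.03 CPM (SD, n = 2) and rank 204. The libraries overlapped for this gene.

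Mir1224 was the lowest, and only 32 reads in replicate 1 and 22 in replicate 2 stand behind its level. These reads gave 4.72 CPM (3.23 to 6.66) and 7.13 CPM (4.47 to 10.8), with overlapping intervals and a mean of 5.92 ± 1.71 CPM (SD, n = 2), rank 302. Both values lay above the level that a count of 0 allows.

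**Figure D1:**
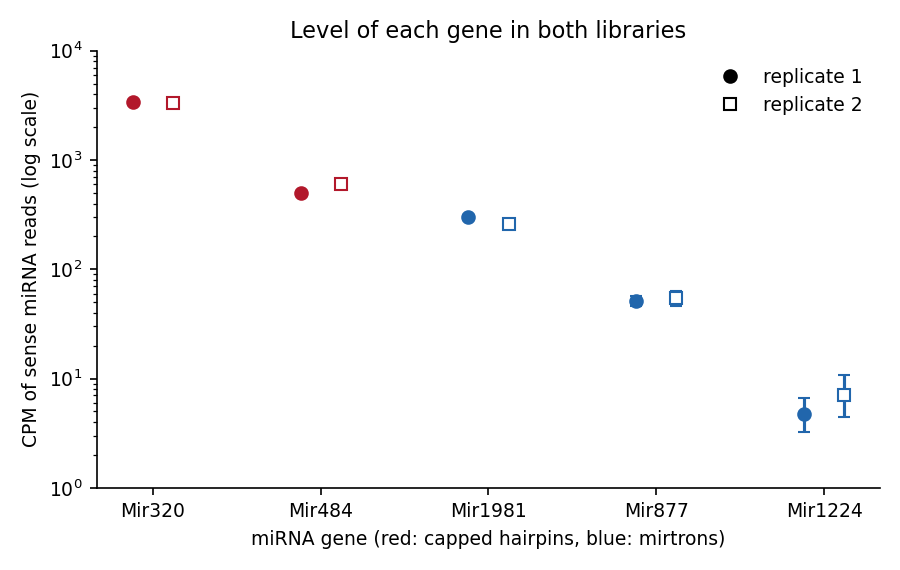
CPM of the 5 genes in replicate 1 (filled circles) and replicate 2 (open squares) on a log axis, with exact Poisson 95% intervals as bars, red for the capped hairpins and blue for the mirtrons. The order from Mir320 (mean 3337 CPM) to Mir1224 (mean 5.92 CPM) is the same in both libraries.

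The order Mir320, Mir484, Mir1981, Mir877, Mir1224 held in both libraries. A pair of genes was called ordered when both libraries ordered it alike and the gap in log2(CPM + 1) exceeded the replicate difference of either gene, which was so for 10 of the 10 pairs. The closest pair was Mir484 over Mir1981, at 1.65-fold in replicate 1 and 2.33-fold in replicate 2. Among the mirtrons, Mir1981 was 5.83-fold and 4.74-fold above Mir877, and Mir877 was 10.9-fold and 7.64-fold above Mir1224. Mean levels thus spanned 563-fold from Mir320 to Mir1224. These are ratios of reads.

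Genes of like level were named by the distance in log2(CPM + 1) over the 2 libraries, among genes with a mean of at least 10 CPM. Nearest to Mir320 were Mir100, Mir378a and Mir21a, at mean levels of 3362, 3342 and 3128 CPM. Nearest to Mir484 were Mir369, Mir455 and Mir485, at 570.1, 519.7 and 559 CPM. Mir1981 stood beside Mir770, Mir338 and Mir542, at 283.9, 266.9 and 260.3 CPM, and Mir877 beside Mir760, Mir18 and Mir3068, at 50.4, 47.3 and 48.05 CPM. Mir1224 itself was below 10 CPM, and its nearest genes above that level, Mir450-2, Mir412 and Mir5113, stood at 10.3, 11.9 and 10.6 CPM. With 2 libraries, this is a likeness of level alone.

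**Figure D2:**
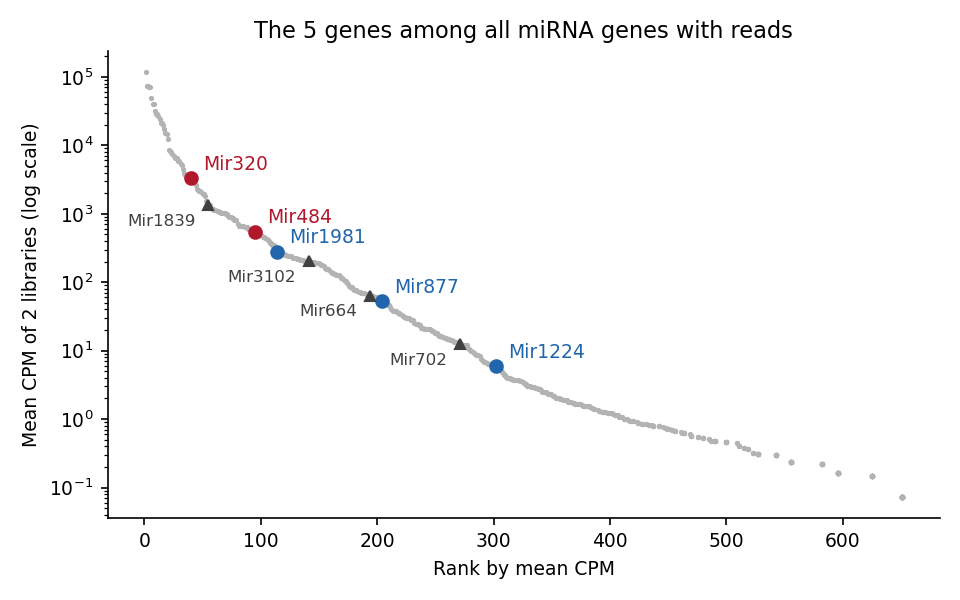
Mean CPM of the 2 libraries (log axis) against rank for miRNA genes with reads (grey), with the capped genes in red, the mirtrons in blue and 4 other genes held to be made without Drosha or its usual cut as dark triangles. Mir320 stands at rank 40 and Mir1224 at rank 302.

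The libraries were compared by the difference in log2(CPM + 1), replicate 2 minus replicate 1. Fisher's exact test (two-sided) was run on the reads of the 280 genes with a mean of at least 10 CPM, with Benjamini-Hochberg adjustment over these genes. A gene was called when the adjusted p was under 0.05 and the absolute difference at least 1. This test compares the reads of 2 libraries, not conditions or animals. Of the 280 genes, 10.7% were called and 69.3% had an adjusted p under 0.05. Of the 5 genes, 4 were tested, 0 were called and 2 had an adjusted p under 0.05. The adjusted p values hold for scaling to all sense miRNA reads.

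Mir320 differed by −0.02 (adjusted p of Fisher's exact test 0.278), and with scaling to all sense miRNA reads the test did not separate the libraries. Under scaling by edgeR TMM and DESeq2 size factors its difference stood at −0.12 and −0.16. The adjusted p does not carry over to these larger differences. Mir484 differed by 0.27 (adjusted p of Fisher's exact test 2.01e-10) and Mir1981 by −0.22 (adjusted p of Fisher's exact test 0.000512). Both differences exceeded read counting and were below the size needed for a call. Their sizes moved with the scaling, to 0.17 under TMM and 0.14 under DESeq2 for Mir484 and to −0.32 and −0.35 for Mir1981. Which of these genes differed more thus depends on the scaling. Both scalings used all genes with reads. Over genes of at least 10 CPM, a choice made after seeing the data, both gave 0.26 for Mir484 and −0.23 for Mir1981. Mir877 differed by 0.08 (adjusted p of Fisher's exact test 0.635). Its sign turned under TMM and DESeq2 over all genes with reads, at −0.02 and −0.06. Mir1224, at 0.51, was below 10 CPM and so not among the 280. Its difference depends on the pseudocount, at 0.22 with 10 in place of 1. With no filter on level, the adjusted p of its Fisher's exact test over 703 genes was 0.344.

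The median absolute difference was 0.15 over the 4 genes tested and 0.28 over all 280. An absolute difference under 0.1 was seen in 2 of the 4, Mir320 and Mir877, and in 18.2% of the 280. These values hold for scaling to all sense miRNA reads. Under edgeR TMM and DESeq2 size factors Mir320 was beyond 0.1, at −0.12 and −0.16. These are descriptions of 4 genes, and no test sets them apart from other genes. Mir451a, a red cell miRNA that is cut by Drosha but not by Dicer, was at 5351 and 1949 CPM in the same libraries, a difference of −1.46. Mir144, the other red cell marker on the list, was at 191 and 187 CPM, a difference of −0.03.

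**Figure D3:**
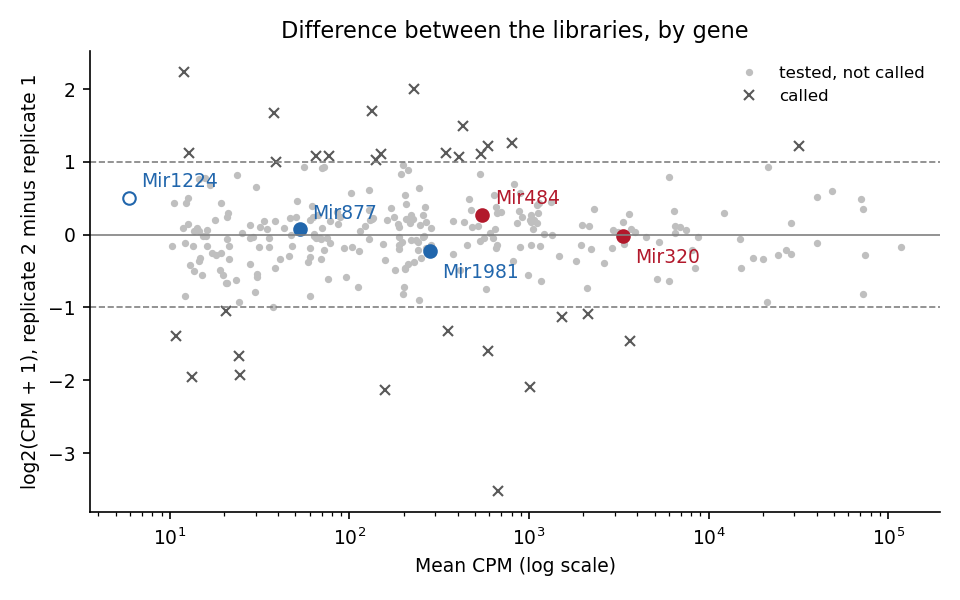
log2(CPM + 1) of replicate 2 minus replicate 1 against mean CPM (log axis) for the 280 genes tested, crosses for those called, with the capped genes in red and the mirtrons in blue. Mir1224 (open) was not tested, and the 4 tested genes lie between −0.22 and 0.27, inside the dashed lines at an absolute difference of 1.

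Other genes held to be made without Drosha or its usual cut were taken from a list. Mir3102, a tandem mirtron that gives 2 sequences from each arm, stood at 236 CPM (225 to 248) in replicate 1 and 170 CPM (155 to 185) in replicate 2, with intervals that did not overlap. Mir702, a mirtron in Plod3, stood at 11.9 CPM from 81 reads and 13.3 CPM from 41 reads. Mir1839 and Mir664, whose hairpins overlap a small Cajal body RNA and a small nucleolar RNA, stood at 1349 and 1346 CPM and at 64.3 and 63.2 CPM. Mir1186 was not found by name in the table.

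The annotation itself marks further mirtron candidates. A miRNA gene was taken to fill an intron when both hairpin ends lay within 5 bases of the ends of 1 annotated intron of the same strand, which gave 23 genes, Mir877, Mir1224 and Mir1981 among them. Their hairpins start with GU and end with AG in 21 of 23, against 0.964% of the 2179 other miRNA genes. Since splice sites define this class, the difference is one of construction. Of the 23, 5 were detected (21.7%), beside 329 of the 2179 others (15.1%).

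Without the 3 listed mirtrons, 2 of 20 were detected (10.0%). These were Mir3102, in Arhgef17, and Mir3547, in Baiap3, at 25.8 and 15.9 CPM. Of the 23 genes, 7 had 0 reads in both libraries and 11 had reads without passing 2 CPM in both. As a class they held 0.0625% (Wilson 95% interval 0.0606 to 0.0644) of the miRNA reads of replicate 1 and 0.0514% (0.0489 to 0.0540) of those of replicate 2. Mir1981 and Mir3102 supplied most of these reads, 2040 and 1604 of 4238 in replicate 1.

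The mature sequences also follow the intron ends. RefSeq gives mature sequences for 19 of the 23 genes. It lists 20 sequences of the 5-prime arm, and 16 start on the first base of the intron, including those of Mir877, Mir1224 and Mir1981. Hairpin ends near the intron ends define this class, so such matches are partly a matter of construction. Of the 18 of the 3-prime arm, 11 end on the last base. The 3-prime sequence of Mir1224 ends there, that of Mir877 ends 1 base before it, and that of Mir1981 ends 2 bases before it. The hairpin annotated for Mir702 starts 9 bases before its intron, but its 5-prime sequence also starts on the first intron base. The 5-prime sequences of Mir3102 and Mir702 are shown because they are alike over this start and share a seed.
miR-3102-5p: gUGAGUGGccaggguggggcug
miR-702-5p: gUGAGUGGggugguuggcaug

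**Figure D4:**
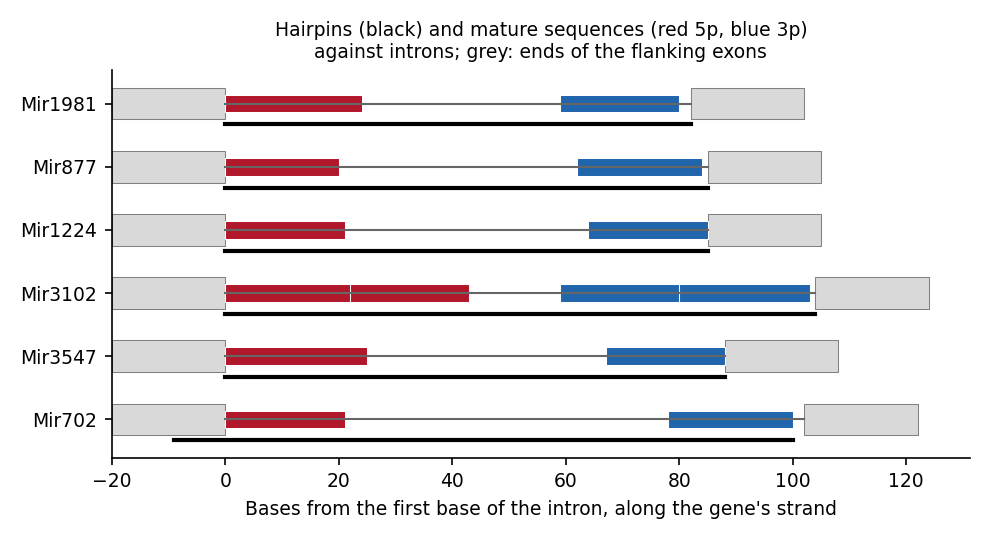
Introns of 6 mirtrons drawn to scale along the strand of the gene, in bases from the first intron base, with the annotated hairpin (black line), 5-prime (red) and 3-prime (blue) mature sequences and the ends of the flanking exons (grey). In 5 of the 6 the hairpin spans the whole intron, and that of Mir702 starts 9 bases before it.

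Base composition is given as a description, with no test. The median GC content of intron-filling hairpins was 62.6%, against 50.6% for the 2179 other genes and 50.0% for the 276 others of at least 10 CPM. The last 20 bases, which in an intron hold the pyrimidine tract before the acceptor, were 90% C or U in Mir877, 85% in Mir1224 and 60% in Mir1981, with medians of 70% in the class and 50% in the others. The first 20 bases were 80% A or G in Mir877 and Mir1224 and 65% in Mir1981, with medians of 75% and 50%.

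The minimum free energy of the hairpins, computed with RNAfold, was −0.56 kcal/mol per base for Mir320 and −0.37 for Mir484. Among the mirtrons it was −0.50 for Mir1224, −0.43 for Mir877 and −0.37 for Mir1981. The median over the 276 other genes of at least 10 CPM was −0.43.

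Hairpins overlapped by a small nucleolar or Cajal body RNA on the same strand form another group that is known to reach Dicer without Drosha in some cases. Of 24 such genes, 13 were detected (54.2%), beside 334 of all 2202 genes (15.2%). Mir1839 led them, followed by Mir1843a at 239 and 228 CPM, Mir1843b at 177 and 197 CPM and Mir664. A count cannot tell a miRNA from another short fragment of the overlapping RNA. The group held 0.199% and 0.202% of sense miRNA reads in replicates 1 and 2, less than the capped pair of Mir320 and Mir484 held in either.

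**Figure D5:**
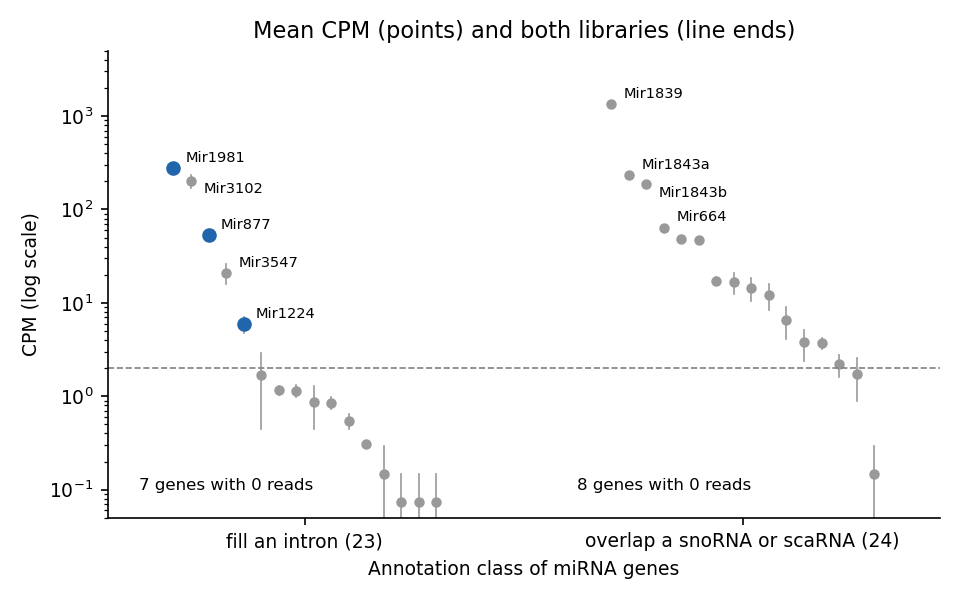
Mean CPM (points) and CPM in both libraries (line ends, on a log axis that cuts off values of 0) for the 23 miRNA genes that fill an intron and the 24 that overlap a small nucleolar or Cajal body RNA, with the 3 listed mirtrons in blue. Above the dashed line at 2 CPM in both libraries are 5 of the first class and 13 of the second, and genes with 0 reads are given as a count.

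The counting of these 5 genes was checked for some sources of ambiguity. The reads of both strands equalled the sense reads for each gene in each library, and opposite-strand reads were 0. The longest stretch that a hairpin shares with another annotated miRNA hairpin of the same orientation was 12 bases for Mir320, Mir484 and Mir1224, 13 for Mir877 and 14 for Mir1981. Reads that map to several places, 30.3% and 32.1% of all reads, were assigned to no gene, and copies of these sequences outside miRNA genes were not searched. For the mirtrons, a count cannot tell a miRNA from another short fragment of the intron.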

How the data were processed

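MicroRNA sequencing covered 2 libraries of 1 group. The authors deposited, per library, raw read counts per miRNA gene for both strands, for the gene's strand and for the opposite strand. Per the file headers and the text deposited beside the tables, the assembly is mm10 and the annotation GENCODE M21. Which aligner was run is not given in the sources used here. Columns carry no header, and their strands were read from the layout. The 4 lines of reads assigned to no gene stayed out of totals.

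Sense counts were scaled to 1000000 sense miRNA reads per library. All 2202 identifiers matched GENCODE M21, which gave names, positions, introns and hairpins. Printed sequences are from RefSeq (GRCm38.p6). Fisher's exact tests used scipy 1.17.1, scaling alternatives edgeR 4.0.16 (TMM) and DESeq2 1.42.0, and folding RNAfold 2.7.2. The calls by Fisher's exact test were tried on simulated counts with set differences and no spread between libraries beyond read counting. The intron rule was tried on a made-up annotation. Other steps were not tried in this way.

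Named are the 5 listed genes, 5 further genes of like origin, Mir451a, the 5 highest intron-filling genes, the 3 genes nearest in level to each listed gene, detected genes sharing a seed and cell type markers; Mir1843a and Mir1843b were chosen after their values were seen. Members and lists were chosen with earlier results of these data known. Alternatives were scaling, strand column, pseudocount, filter, intron tolerance and leaving out each replicate.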

Additional observations from a re-analysis of the deposited data

How the results depend on the processing

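Scaling a library leaves the ratios of its genes as they are, and the both-strand reads of the 5 genes equal their sense reads, so these alternatives do not test the order; the gaps of 10 of 10 pairs still exceeded the replicate differences under edgeR TMM. Leaving out a replicate leaves the value of the other, as the report gives it. With the reads of both strands all 5 means rose, to 3747 CPM for Mir320, 615 for Mir484, 314 for Mir1981, 59.5 for Mir877 and 6.62 for Mir1224, because the total of that column is smaller. The difference of Mir877 turned to −0.0234 under TMM and −0.0578 under DESeq2 size factors. These shifted the median of the 280 genes from 0.01 to −0.09 and −0.12, so relative to the median Mir877 was at 0.06 as reported, 0.07 under TMM and 0.07 under DESeq2, Mir320 at −0.03 in all 3, Mir484 at 0.26 in all 3 and Mir1981 at −0.23 in all 3. With the reads of both strands, the values relative to the median moved. Mir877 was then at 0.01, Mir320 at −0.09, Mir484 at 0.21 and Mir1981 at −0.28, so Mir1981 differed more than Mir484. Scaling over genes of at least 10 CPM, chosen after seeing the data, turned no sign. Of the 280 genes, 30 were called (10.7%), 17 higher and 13 lower in replicate 2. Calls became 50 of 703 with no filter and 19 at 100 CPM. They split as 12 higher and 17 lower under TMM and 8 and 17 under DESeq2. Of the 5 genes, 0 were called under any setting, but Mir1224 was tested only with no filter. Mir877 was not tested at 100 CPM. Beside the share called over all genes, 0 of so few is a description and no sign of stability. Intron-filling genes numbered 22 and 29 with tolerances of 2 and 10 bases. No paired analysis was possible because there is 1 group. Depth limits Mir1224 most, with 32 and 22 reads.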
